A study of Cricetiscus sungorus with 16 samples.

Results

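Transcripts of the cell division cycle were followed in the ovaries of Siberian hamsters reared in long or short days. The set was given as 58 mouse RefSeq identifiers and was described as cyclins, kinases of mitosis, kinesin motors, MCM helicases and enzymes that make nucleotides. Of these 58, 56 had a probe on the array, 43 gave enough signal to be tested and 2 (NM_011524 and NM_007631) were not on the array. The whole array held 33272 identifiers, of which 20143 were tested. The files give identifiers without gene symbols, and they do not say which identifier belongs to which class, so each member is named here by its identifier alone. The groups of members drawn up for the analysis also held inhibitors of cyclin-dependent kinases, which act against the cycle. Which identifiers these are could not be told, so a member that did not fall need not be one that drives division. Markers of ovarian cell types could not be matched for the same reason, and the labelled tissue was not checked against them.

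A dividing cell passes through growth, DNA replication and mitosis, and cyclins switch on the cyclin-dependent kinases that drive each step. MCM helicases are loaded on replication origins before S phase and unwind the DNA during it, while enzymes of nucleotide synthesis supply the building blocks. Mitotic kinases and kinesins build the spindle and move the chromosomes. Transcripts of many such genes are high in cycling cells and low in resting ones. In an ovary, the granulosa cells of growing follicles divide, whereas oocytes rest in meiosis and store transcripts of some cell cycle genes.

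The hamsters were gestated and reared under 16 h of light a day (LD, long days) or 10 h (SD, short days), and females were killed at 3 or 8 wk of age. Each of the 4 groups (LD 3 wk, LD 8 wk, SD 3 wk, SD 8 wk) held 4 hamsters; the labels name no other treatment or genotype. RNA from both ovaries of a hamster went to 1 single-colour mouse array, so a value is an average over all cells of the organ, and fewer dividing cells cannot be told apart from less RNA per cell. For the SD hamsters at 8 wk the labels conflict, with 16 h in the title and treatment fields and 10 h in the description; they were taken as SD. The series asks whether ovaries of the 2 day lengths differed at each age and how each changed with age.

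The 16 arrays lay on 4 slides, each with 1 array of every group. The 4 groups took fixed positions within a slide, so position and group cannot be told apart. Slide 1 was the dimmest; the array's 75th percentile of intensity lay between 268.7 and 1007, and between 58.0% and 75.7% of probes were well above background. The slide 1 arrays stood apart in several members (9 of 10 arrays far from the rest of their group were on it), so counts are also given without that slide. Levels below are log2 intensities relative to the array's 75th percentile. Differences come from a limma fit over all tested identifiers, with Benjamini-Hochberg adjustment and a threshold of 0.05; "fell" and "rose" are used only for members past it. The probes were designed for mouse, and how well each one detects its hamster counterpart was not tested. Of the 43 members tested, 40 were well above background on every array.

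In both day lengths the tested cell cycle transcripts had a higher median level on every array at 3 wk than on any array at 8 wk. When each member was centred on its own mean, the median over the 43 members was 0.66, 0.21, 0.39 and 0.44 on the LD arrays at 3 wk (slides 1 to 4). In LD at 8 wk it was −0.08, −0.43, −0.42 and −0.61. In SD ovaries it was 0.91, 0.47, 0.33 and 0.37 at 3 wk and −0.56, −0.65, −0.61 and −0.56 at 8 wk. The lowest value at 3 wk, on the LD array of slide 2, was thus above the highest at 8 wk, on the LD array of slide 1. The median over all 20143 identifiers stayed between −0.10 and 0.23 on the same scale. The means of the groups were 0.43 ± 0.19 (LD 3 wk), 0.52 ± 0.27 (SD 3 wk), −0.39 ± 0.22 (LD 8 wk) and −0.60 ± 0.04 (SD 8 wk; ± standard deviation, n = 4). In 33 of the 43 members both means at 3 wk exceeded both means at 8 wk, an order shown by 31.8% of all identifiers tested. The lowest mean of the 4 was that of SD 8 wk in 31 members (32.6% of all identifiers) and the highest that of SD 3 wk in 25 (19.6%).

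**Figure D1:**
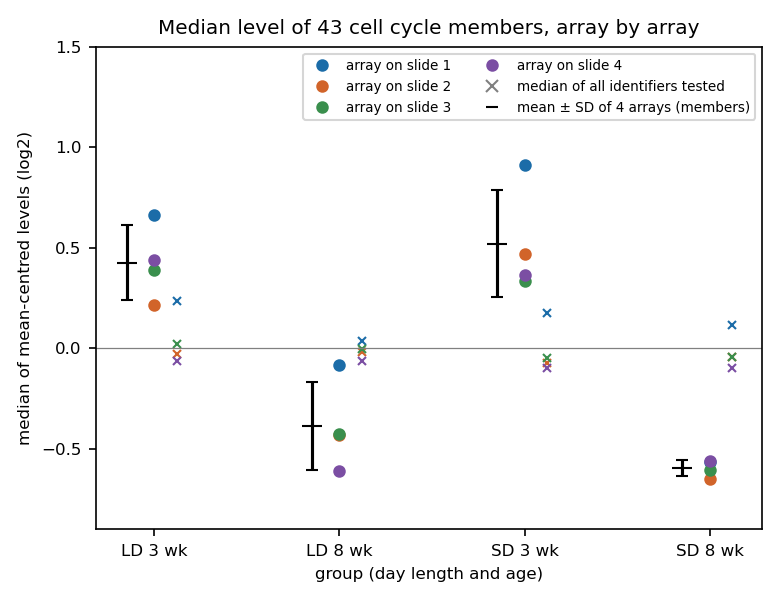
Median over 43 cell cycle members of the mean-centred log2 level on each of the 16 arrays (filled circles, coloured by slide), by day length and age, with the group mean ± standard deviation in black and the median over all tested identifiers as crosses. The arrays at 3 wk lie between 0.21 and 0.91 and those at 8 wk between −0.65 and −0.08, while the crosses lie between −0.10 and 0.23. The highest cross, on the LD array of slide 1 at 3 wk, is above the lowest 3-wk circle, on the LD array of slide 2. The points of slides 1 and 4 in SD 8 wk coincide at −0.56.

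In LD ovaries, 18 of the 43 members (41.9%) fell between 3 and 8 wk and 0 rose (limma, adjusted p under 0.05). Over all identifiers tested, 1.78% fell and 1.21% rose. With slide as a block, 26 members (60.5%) fell and 0 rose, beside 7.96% of all identifiers that fell and 3.93% that rose. The median change over the tested members was −0.84 on the log2 scale, against −0.04 over all identifiers, and 37 of 43 had a negative sign (56.8% of all identifiers). Of the 18, 13 fell at least 2-fold (1.05% of all identifiers). In 20 members every array at 8 wk was below every array at 3 wk (5.27% of all identifiers), and in 1 member every array was above (3.44%).

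The steepest falls in LD past the threshold were those of NM_007900 (log2 −1.40, SE 0.20, limma adjusted p = 0.00276), NM_012025 (−1.40) and NM_013552 (−1.38), each about 2.6-fold. NM_007900 dropped by a similar amount on every slide, between −1.49 and −1.27. NM_023209 had a change of −1.42 that did not pass (SE 0.54, limma adjusted p = 0.221), with slides from −3.01 to −0.23. Medians over members within slides 1 to 4 were −0.66, −0.64, −0.91 and −1.09, all below those over all identifiers, which ran from −0.21 to 0.02. Single arrays changed this count, to 10 without the LD 3-wk array of slide 4, to 12 without the LD 8-wk array of slide 3 and to 23 without the LD 8-wk array of slide 1. It was also 10 when only the 8 LD arrays were fitted. Without slide 1 it was 24. Calls over all 20143 identifiers, in either direction, moved too. They were 232, 322, 682, 220 and 1246 in these fits, in that order, beside 601 in the main fit. In each of these fits 0 members rose.

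In SD ovaries, 26 of 43 members (60.5%) fell between 3 and 8 wk and 0 rose, while 4.38% of all identifiers fell and 4.77% rose. With slide as a block, 30 members (69.8%) fell and 0 rose, beside 12.2% of all identifiers that fell and 10.9% that rose. The median change was −1.28, against 0.00 over all identifiers, and 36 of 43 were negative (49.9% of all identifiers). Of the 26, 23 fell at least 2-fold (2.49% of all identifiers). In 27 members the arrays of the 2 ages did not overlap, all with the lower level at 8 wk (7.83% of all identifiers; 8.12% had the higher level), and in 31 members the change was negative on all 4 slides (23.2% of the 19279 identifiers measured on every array pair). In LD this held for 22 members and 18.2% of 19220 identifiers. Within slides 1 to 4 the members' medians were −1.64, −1.18, −0.98 and −0.94. Leaving out any single array gave between 23 and 27 falls and 0 rises, and leaving out slide 1 gave 26 and 0. Over all 20143 identifiers, calls in either direction then ran from 1139 to 2201, and were 2865 without slide 1. With every array in the fit there were 1844.

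Among members well above background on all 16 arrays, NM_025415 stood at 4.79, 4.11, 3.78 and 3.79 in SD at 3 wk and at 2.45, 2.003, 2.24 and 2.48 at 8 wk. It fell by 3.54-fold (log2 −1.83, SE 0.25, limma adjusted p = 0.000260), and no array of 1 age reached the range of the other. NM_026560 (−1.80), NM_009772 (−1.77), NM_134471 (−1.77), NM_007659 (−1.68) and NM_009773 (−1.68) also fell by more than 3-fold. NM_023209 and NM_009445 were dim and passed the filter through their 3-wk groups. At 8 wk they were well above background on 2 and 1 of 4 SD arrays. The fitted SD changes of −2.14 (SE 0.54) and −1.92 (SE 0.43) therefore have no settled size. Both members are included in the 26 SD falls and in the 30 with the block. NM_011623 passed with the block and was well above background on 1 of 4 SD arrays at 8 wk. Its change has no settled size either, and it is included in the 30. Of the 30, 27 were well above background on all 16 arrays. Among the 40 tested members of that kind, 24 fell in SD in a fit without the block.

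**Figure D2:**
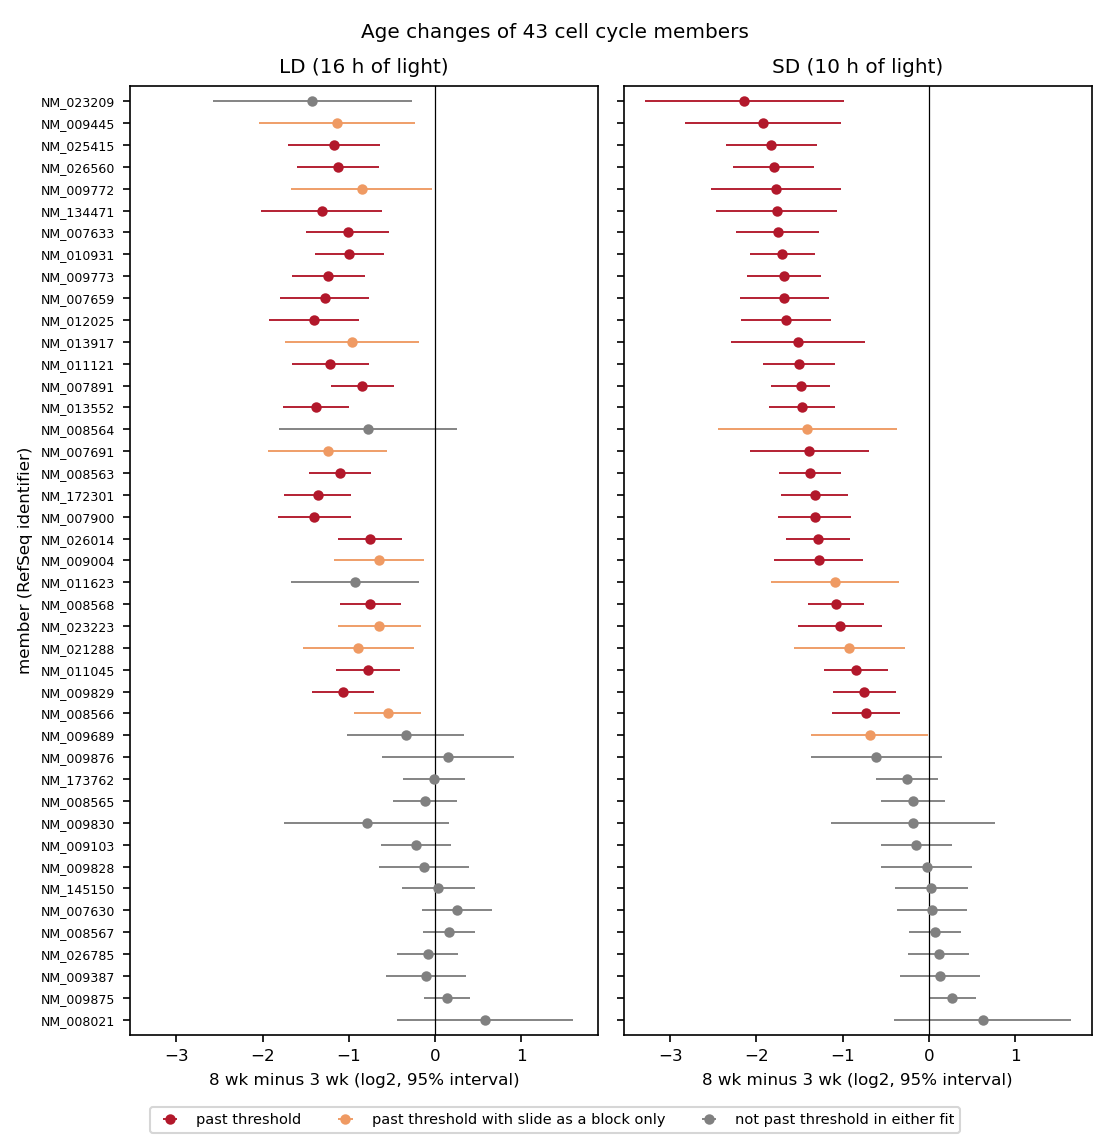
Change from 3 to 8 wk (log2, with 95% interval) of each of the 43 tested members in LD (left) and SD (right), ordered by the SD change and coloured by whether the limma adjusted p passed the threshold. In SD the top 30 members, among them the dim NM_023209, NM_009445 and NM_011623 with no settled size, lie between −2.14 and −0.69 and the rest between −0.61 and 0.62; in LD 18 members are past the threshold.

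The 2 age changes share no arrays. They were fitted together with 1 estimate of the spread per identifier, and their arrays lay on the same 4 slides. The 2 lists are therefore not independent. All 18 members that fell in LD were among the 26 that fell in SD, which is 100% of the LD list and 69.2% of the SD list. Of all identifiers, 320 fell in both, which is 89.4% of the LD list and 36.2% of the SD list. With slide as a block, 26 fell in both day lengths, 4 (NM_023209, NM_008564, NM_011623 and NM_009689) passed in SD alone and 13 in neither; over all identifiers 1261 fell in both (78.7% of the LD list and 51.4% of the SD list). In LD these 4 had changes of −1.42, −0.78, −0.93 and −0.34, below 0 as in SD.

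Values on every array are given for the members with the smallest adjusted p in each comparison that had calls. NM_010931, the member with the smallest adjusted p in SD, stood at 3.19, 2.85, 2.81 and 2.97 in SD at 3 wk and at 1.22, 0.95, 1.30 and 1.57 at 8 wk. In LD it was 2.32, 2.85 and 3.01 at 3 wk (the spot on slide 1 was flagged as an outlier and left out) and 1.77, 1.53, 1.71 and 1.91 at 8 wk. The ages did not overlap in either day length, and the SD arrays at 8 wk were lowest with 1 exception inside the LD range. The fall was 3.25-fold in SD (difference −1.70, SE 0.17; limma adjusted p = 4.9e-05) and 1.99-fold in LD (−0.99, SE 0.19, limma adjusted p = 0.0111).

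NM_007891 was 1.98, 1.53, 1.47 and 1.92 in SD at 3 wk and −0.02, 0.35, 0.30 and 0.32 at 8 wk. Its LD levels were 1.41, 1.53 and 1.97 at 3 wk, with the spot of slide 1 left out, and 0.76, 0.84, 0.86 and 0.71 at 8 wk. The LD arrays at 8 wk lay in a narrow band between the 3-wk arrays and the SD arrays at 8 wk, with no overlap on either side. The drop from 3 to 8 wk was 2.80-fold in SD (difference −1.48, SE 0.16; limma adjusted p = 6.9e-05) and 1.79-fold in LD (−0.84, SE 0.17, limma adjusted p = 0.0164).

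NM_013552 was −0.47, −0.92, −0.51 and −0.85 in LD at 3 wk and −1.75, −1.98, −2.09 and −2.46 at 8 wk. In SD it was −0.34, −0.55, −0.99 and −0.92 at 3 wk and −2.26, −2.07, −2.18 and −2.18 at 8 wk. Here the day lengths overlapped at both ages and the ages were apart in both. The change was −1.38 in LD (SE 0.18, limma adjusted p = 0.00162) and −1.47 in SD (SE 0.18, limma adjusted p = 0.000124).

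NM_172301 showed the same layout. Its LD levels were 4.75, 4.11, 4.21 and 4.43 at 3 wk and 3.15, 3.04, 3.06 and 2.80 at 8 wk, and its SD levels 4.49, 4.73, 4.06 and 4.03 at 3 wk and 2.85, 3.23, 3.07 and 2.86 at 8 wk. Within an age the day lengths covered the same range. It fell by 2.57-fold in LD (log2 −1.36, SE 0.18, limma adjusted p = 0.00182) and by 2.51-fold in SD (−1.32, SE 0.18, limma adjusted p = 0.000282).

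NM_007633 was 4.57, 3.80, 4.15 and 4.46 in LD and 4.54, 3.71, 3.71 and 4.14 in SD at 3 wk. At 8 wk it was 3.18, 3.03, 3.24 and 3.47 in LD and 1.93, 2.04, 2.36 and 2.76 in SD. At 3 wk the day lengths overlapped, and at 8 wk all 4 SD arrays were below all 4 LD arrays. The SD fall of this member was 3.37-fold (log2 −1.75, SE 0.23; limma adjusted p = 0.000186). The LD fall was 2.02-fold (−1.01, SE 0.23, limma adjusted p = 0.0221).

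**Figure D3:**
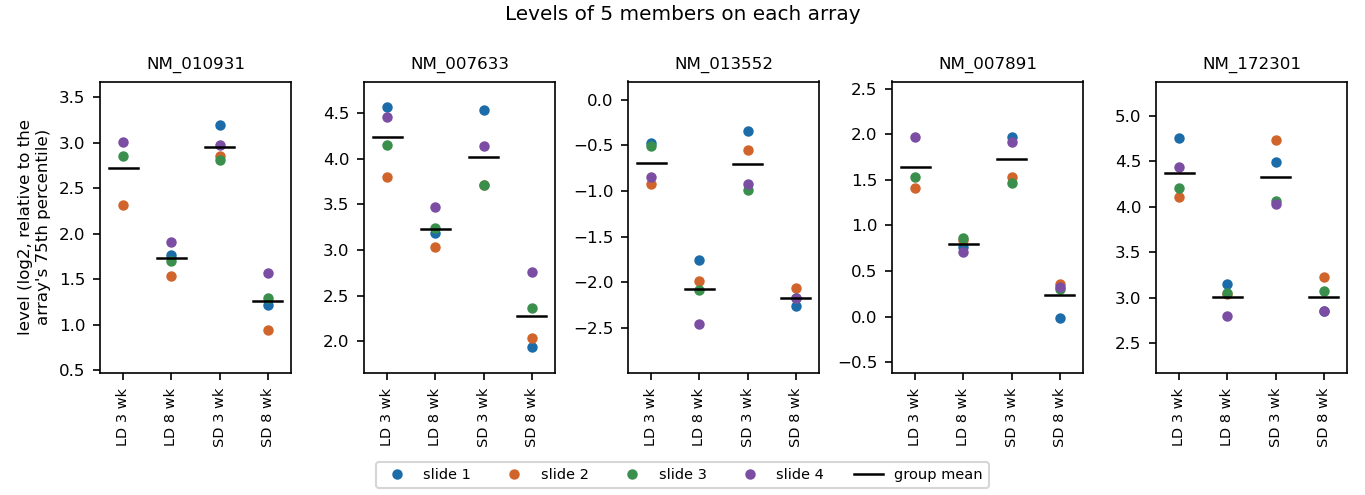
Level (log2, relative to the array's 75th percentile) of 5 members on each array, by group, coloured by slide, with group means as black bars; every panel spans the same number of log2 units. In each panel the 3-wk arrays of a day length lie above its 8-wk arrays, and in NM_007633 and NM_007891 all SD arrays at 8 wk lie below all LD arrays at 8 wk.

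The remaining members did not pass. The 13 members that passed the threshold for the SD change in neither fit were NM_009876, NM_173762, NM_008565, NM_009830, NM_009103, NM_009828, NM_145150, NM_007630, NM_008567, NM_026785, NM_009387, NM_009875 and NM_008021. All 13 were well above background on all 16 arrays, and a second probe of NM_173762 had a larger change than the one used (given with the other probes). Their SD changes ran from −0.61 to 0.62 and their LD changes from −0.79 to 0.58. For some the interval was narrow: the SD change of NM_007630 was 0.04 with a 95% interval from −0.37 to 0.45, and that of NM_008567 was 0.07 with an interval from −0.23 to 0.37. For others it was wide: NM_009830 had −0.18 with an interval from −1.14 to 0.77.

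Within these 13, NM_009875 and NM_008021, with positive values in both day lengths, were picked out after the values were seen. NM_007630, NM_008567 and NM_145150 also had positive values in both. NM_009875 stood at 3.32, 3.28, 3.33 and 3.29 in LD at 3 wk and at 3.50, 3.38, 3.34 and 3.56 at 8 wk, and was the member whose LD arrays at 8 wk all lay above those at 3 wk. Its change was 0.14 in LD (SE 0.13, limma adjusted p = 0.780) and 0.27 in SD (SE 0.13, limma adjusted p = 0.247), positive on all 4 slides in both. NM_008021 had the highest SD change, 0.62, with a 95% interval from −0.40 to 1.65. Its LD change of 0.58 rested largely on 1 array: the 8-wk levels were −0.12 on slide 1 and −2.74, −2.63 and −2.28 on the other slides, against −3.01 to −2.20 at 3 wk.

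The calls were also counted by brightness. A probe's brightness depends on its sequence as well as on the transcript, so it is used here only as a measure of signal. Of 22 members with a mean level above the array's 75th percentile, 17 fell in SD and 16 in LD (18 and 18 with slide as a block). Of 21 below it, 9 fell in SD and 2 in LD (12 and 8 with the block). Over all identifiers, 5.63% of those above and 3.46% of those below fell in SD, and 2.33% and 1.37% in LD. With the block these shares were 16.5% and 8.95% in SD, and 11.1% and 5.65% in LD. The members' median change was −1.43 in SD and −1.04 in LD above the percentile, and −0.73 and −0.55 below it. The difference between bright and dim members was not tested.

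**Figure D4:**
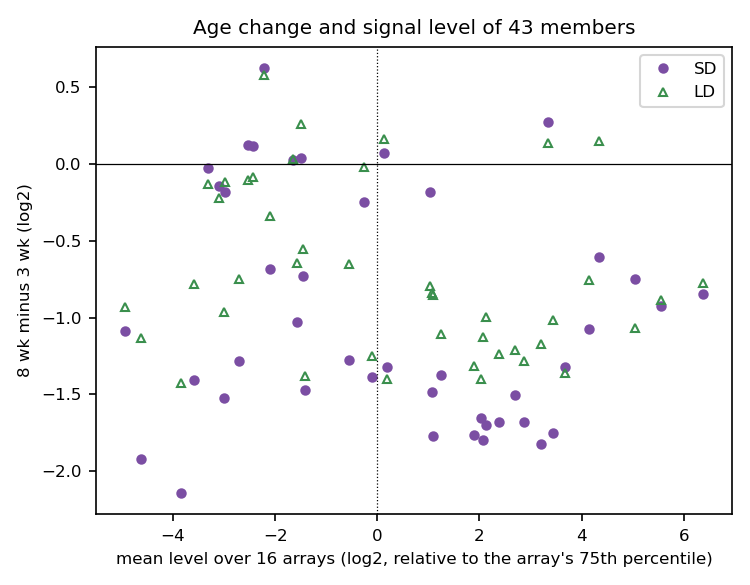
Change from 3 to 8 wk (log2) of each of the 43 members in SD (filled circles) and LD (open triangles) against its mean level over 16 arrays (log2, relative to the array's 75th percentile, dotted line at 0). Most members right of the line lie between −0.75 and −1.83 in SD, and values near 0 are more frequent left of it.

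Further probes allowed a check on some members. Among the tested members, 12 other probes of 10 identifiers passed the filter. For identifiers that fell in SD there were 9 such probes; 9 were lower at 8 wk in SD and 8 in LD, and 6 passed the threshold in SD in a fit over 24617 probes. A second probe of NM_012025 changed by −1.78 and one of NM_025415 by −2.03 in SD, beside −1.66 and −1.83 for the brightest probe. Probes of 1 identifier did not always move together. The dimmest probe of NM_172301 (level −3.05) changed by −0.03 in SD, while its other 2 changed by −1.32 and −1.63. A dim probe of NM_026560 (level −2.91) changed by −0.01, beside −1.80 for the bright one. In NM_173762 the disagreement ran the other way: its dimmer probe (level −3.35) changed by −1.81 in SD (limma adjusted p = 0.0553) and −0.49 in LD, beside −0.25 and −0.02 for the brightest.

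At 3 wk, no member differed between SD and LD ovaries in limma, without or with the block, and neither did any of the 20143 identifiers (0%). At an unadjusted p under 0.05 there was 1 member, NM_009876 (0.88, SE 0.36), and 330 identifiers (1.64%); with the block there were 3 members and 1298 identifiers (6.44%). The median SD minus LD difference was 0.04 over the members and −0.05 over all identifiers, with members from −0.35 to 0.88. The arrays of the day lengths overlapped in all 43 members; they did not in 1.33% (lower in SD) and 0.377% (higher) of all identifiers. The 95% interval lay within 2-fold for 35 of 43 members, and for 39 with slide as a block. NM_009876 stood at 4.01 ± 0.51 in LD and 4.89 ± 0.37 in SD (± standard deviation, n = 4).

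At 8 wk, 0 members passed the threshold, beside 0.223% of all identifiers lower and 0.735% higher in SD. At an unadjusted p under 0.05 there were 4 members (9 with the block) and 1397 identifiers, 6.94% (2847 and 14.1% with the block). With slide as a block 1 member, NM_007633, was lower in SD and 0 were higher, against 0.804% and 1.82% of all identifiers. It differed by −0.96 (SE 0.23, limma adjusted p = 0.0609; SE 0.17 and adjusted p = 0.00872 with the block), and by −1.25 to −0.71 within slides. Over 31 alternatives its adjusted p ran from 0.00635 to 0.241, and it passed in 6 of them. The second probe of this identifier was followed for the age changes only, with −1.21 in SD and −0.72 in LD, against −1.75 and −1.01 for the first. Its SD minus LD difference at 8 wk was not examined.

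In 35 of 43 members the SD mean at 8 wk was below the LD mean, a sign shown by 52.0% of all identifiers. The median difference was small, −0.14, and the 95% interval lay within 2-fold for 35 members, and for 38 with slide as a block. Without slide 1 the signs were 26 lower and 17 higher, with a median of −0.07. Leaving out single arrays moved the median to between −0.23 (without the LD 8-wk array of slide 4) and −0.06 (without the LD 8-wk array of slide 1), and to −0.21 without the SD 8-wk array of slide 4. The arrays of the day lengths did not overlap in 4 members, all lower in SD: NM_007633, NM_007891 (−0.55, SE 0.16, limma adjusted p = 0.176), NM_026560 (−0.46) and NM_008563, beside 1.93% of all identifiers lower and 2.18% higher without overlap. Within slides 1 to 4 the members' medians were −0.53, −0.16, −0.11 and −0.05, beside 0.08, −0.03, −0.02 and −0.06 over all identifiers. The value on slide 1, the slide with the lowest intensities, was the largest; the part of intensity in it was not tested.

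**Figure D5:**
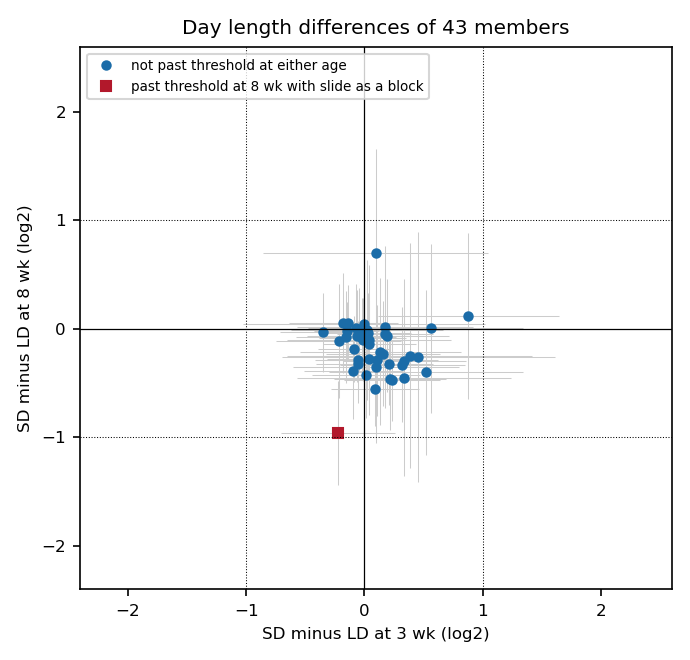
SD minus LD difference (log2) at 8 wk against that at 3 wk for each of the 43 members, with 95% intervals in grey and dotted lines at 2-fold. Points at 3 wk spread from −0.35 to 0.88, most points at 8 wk lie below 0, and NM_007633 (square, −0.96 at 8 wk) is the member past the threshold with slide as a block.

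The age change was more negative in SD than in LD in 33 of 43 members, while 42.5% of all identifiers had that sign. No member passed the threshold for this difference in limma without or with the block, beside 0.00496% of identifiers lower and 0.0546% higher (0.00993% and 0.164% with the block). Unadjusted, 5 members and 614 identifiers (3.05%) had a p under 0.05, and 7 members and 1713 identifiers (8.5%) with the block. The median difference over members was −0.25, against 0.05 over all identifiers. Its size varied by slide, from −0.64 and −0.46 on slides 1 and 2 to −0.02 and 0.06 on slides 3 and 4. Without slide 1, 27 members were negative and 16 positive (median −0.15). On slides 3 and 4 alone the majority turned, with 15 negative and 28 positive (median 0.04). Leaving out single arrays gave medians from −0.36 (without the LD 3-wk array of slide 1) to −0.14 (without the LD 3-wk array of slide 2), and −0.16 without the LD 8-wk array of slide 1. NM_010931 differed by −0.70 (SE 0.26) and NM_007633 by −0.74 (SE 0.32), each with limma adjusted p = 1. The larger number of falls in SD is therefore not shown to be a difference between day lengths. The 95% interval lay within 2-fold for 21 members, and for 28 with slide as a block. In the other members of each fit it reached past 2-fold. A difference of that size could not be set aside in them with this number of arrays.

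The 13 members on the array that were not tested were well above background on 0 to 11 of 16 arrays, with a median of 3, and 3 of them on 0 arrays. In a fit without the filter 0 of the 13 passed the threshold in either age change, and 6 of them had a negative change in SD. Since a member seen at 3 wk alone passes the filter through the group where it is high, the counts were repeated with members well above background on all 16 arrays. Of these 40, 19 fell in LD and 24 in SD, and 0 rose, beside 2.05% and 4.8% of all identifiers in that fit that fell.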

How the data were processed

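The arrays were 1-colour (Cy3) mouse arrays of 45018 spots, used with amplified total RNA, per the labels' protocols. Agilent Feature Extraction 10.5.1.1 extracted the spots, per the file headers; the deposited values are processed intensity on a linear scale, corrected for background but not normalized between arrays. The authors' value table holds the same intensity values, off by over 0.51 percent in 4 cells. Flags for outlier spots and signal above background were taken as deposited, per the file headers.

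Levels are log2 processed intensity minus each array's 75th percentile, without control and outlier-flagged spots, with spots of a probe averaged. A probe was kept if well above background on all 4 arrays of a group and measured on 12 or more arrays, with 2 or more in every group and slide (24998 of 41174 probes). The brightest stood for an identifier. No spot was saturated. Tested members that lost a value to the outlier flag lost it on slide 1 (NM_008568, NM_009772, NM_009773, NM_011121, NM_007891 and NM_010931). A fit without a slide term then compares unlike slides in them. The SD minus LD difference of NM_009772 at 3 wk was 0.52 in that fit and 0.25 with slide as a block. limma 3.58.1 in R 4.3.3 (lmFit, eBayes with trend) was run over all 16 arrays without a slide term; slide as a block was an alternative. Labels give each hamster its own code and no replicate numbers; replicates are numbered by slide. Arrays of a slide deviated together from group means (correlation of deviations 0.451 at the median, 0.224 at the lowest), so the slide pairs the arrays. Counts past the threshold are therefore given with the block as well. Standard errors, intervals and adjusted p of single members come from the fit without it, which ignores the pairing, unless the block is named. The fit was also run on simulated arrays with known changes. Those arrays held no slide effect, so that run does not bear on the choice between the fits with and without the block.

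The members and lists were chosen with earlier results of these data known. With no table that names the identifiers, the role groups, pathway lists, cell type markers and promoter motifs drawn up for the analysis could not be matched and no sequence is shown; of the rule for named members, the part on adjusted p was applied, at most 30, with array values for the smallest in each comparison with calls. Tried as alternatives were quantile normalization, normexp on median signals, the value table, filters, probe means, no trend, array weights, outlier spots kept, a 2-fold minimum, fewer arrays and each array left out. For normexp, local backgrounds flagged as outliers were replaced by the array's median after the data were seen.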

Additional observations from a re-analysis of the deposited data

Results flagged for a closer look

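Among 117 groups of 4 arrays looked at (the 30 members with a call in some comparison, and the per-array medians), 10 held an array far from the other 3. For independent groups with a normal spread, chance gives about 1 group in 20. The members share the same arrays and were chosen by their calls, so the 10 cannot be set against that rate. In SD at 8 wk, NM_007891 had an array at −0.02 with the others from 0.30 to 0.35, NM_008563 one at 0.09 with the others from 0.53 to 0.61, and NM_007691 one at −1.06 with the others from −0.73 to −0.72. In LD at 8 wk, NM_026560 had an array at 2.09 (others 1.36 to 1.44) and NM_013917 one at −2.35 (others −4.16 to −3.97). At 3 wk, NM_021288 had an array at 6.86 in LD (others 5.58 to 5.79) and one at 6.91 in SD (others 5.66 to 5.78). Also at 3 wk, NM_009445 had an array at −3.34 in LD (others −4.28 to −4.23), NM_013917 one at −1.50 in SD (others −2.31 to −2.28) and NM_008564 one at −1.92 in SD (others −3.20 to −3.10). In 9 of the 10 cases the array was that of slide 1, where the intensities were lowest; the exception was NM_007691, on slide 3. The part of intensity in these values was not tested.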

How the results depend on the processing

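Over 31 alternatives (30 for the difference of the age changes), 15 of 313 values of the counts and medians moved by more than the limit used (1.5 times for a count, the standard deviation between slides for a median). That limit is wide for the small medians between day lengths. Of 1947 values for 63 differences of single members, 86 lost their call, 78 gained one and 0 changed sign. These members were chosen by their calls in these data, so the kept signs were largely set in advance. The tested members without a call were not followed in this check. With slide as a block (the replicate block, arrays paired by slide), 1 member passed between day lengths at 8 wk in place of 0. In that fit 13 of the 63 member differences gained a call. The count at 8 wk was also 1 with array weights, 1 with outlier spots kept, and 3 with outlier spots kept and the block. With the block on slides 1 and 2 alone it was 1, in the opposite direction (higher in SD). Over all identifiers 349, 235, 580 and 155 passed in these fits, in that order. With each array left out the 8-wk count was 0 to 1, beside 118 to 241 over all identifiers. The LD fall count was 10 to 23 with each array left out (232 to 682 calls over all identifiers). It was 10 with only the arrays compared (220 calls over all identifiers). With the block on slides 1 and 2 it was 0, and there 0 of all identifiers passed for LD. The median LD change was −0.58 with normexp. The median SD change was −0.86 with normexp, −0.74 with no detection filter (56 members) and −0.94 with the block on slides 3 and 4. The median difference at 3 wk was 0.25 with the block on slides 1 and 2, −0.10 on slides 3 and 4, and −0.07 to 0.14 with each array left out; its sign turned in 4 of 31 alternatives. The 8-wk median ran from −0.29 (slides 1 and 2) to −0.05 (slides 3 and 4). The median difference of the age changes ran from −0.55 (slides 1 and 2) to 0.04 (slides 3 and 4), the alternative in which its sign turned. The cause of these moves was not tested, except that no filter adds 13 members and that 2 slides hold fewer arrays. Dim members limit the comparison: those not well above background at 8 wk have a less certain size of change. The fits on pairs of slides, and those with outlier spots kept and the block, were chosen after seeing the data.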
